A study of Mus musculus with 6 samples.

Results

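Transcripts for 6 genes of the phagocyte NADPH oxidase, Ncf1, Ncf4, Cybb, Cyba, Rac1 and Rac2, were followed in Pax5-deficient mouse pro-B cells. The genes were chosen by name with the difference between the EBF and control arrays already in view, so that difference is given here as a description, without a p-value for any of them. All 13 probe sets that the platform table pairs with exactly 1 of these symbols were kept, of 45037 probe sets and 18193 named genes in all. In both groups the cells were Pax5-/- pro-B cells grown on ST2 stromal cells with 5 ng/ml IL-7. One group of 3 arrays came from cells infected with the Mig-EBF retrovirus, which carries the B lineage transcription factor EBF, and the other 3 from cells infected with the control retrovirus MigR1. GFP-positive cells were sorted 2 days after infection and 6 microg of total RNA per array was labelled. The labels number the arrays 1 to 3 in each group but do not say whether these were separate cultures or animals. The errors therefore rest on the spread between arrays, which may be technical. Each SE comes from a fit that draws the variance of a probe set toward that of all probe sets. It can thus exceed what the arrays of that probe set alone would give. The comparison asks how gene expression differs with added EBF where Pax5 is missing, since both groups carry the Pax5 mutation.

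The phagocyte oxidase passes electrons from NADPH to oxygen and so makes superoxide, which neutrophils and macrophages use against engulfed microbes. Its catalytic core is flavocytochrome b558, a membrane pair of gp91phox (Cybb) and p22phox (Cyba). When the cell is activated, the cytosolic organiser p47phox (Ncf1) moves to the membrane together with other cytosolic subunits such as p40phox (Ncf4), and a GTP-bound Rac protein, mainly Rac2 in neutrophils, completes the enzyme. B lymphocytes are known to carry the complex too, at lower levels than phagocytes. Both Rac proteins also have wide roles in the cytoskeleton and in signalling.

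Ncf1 and both chains of the flavocytochrome were lower in the EBF arrays, by 1.51- to 2.04-fold, whereas Ncf4, Rac1 and Rac2 lay within 1.21-fold of the controls. RefSeq promoter windows of the mouse build GRCm38.p6 were matched by symbol for 3 of the 6 genes, Ncf1, Cybb and Cyba. Their 250 bases before the transcript start are shown because these genes had a window in that table. Each lies on the minus strand and is written 5′ to 3′ in the direction of the gene, at chr5:134229626-134229875, chrX:9469325-9469574 and chr8:122432941-122433190. Capitals mark matches, on either strand, to the IRF-type motif GAAANNGAAA (Ncf1, Cybb) or the EBF-type motif CCCNNGGG (Cyba).
Ncf1: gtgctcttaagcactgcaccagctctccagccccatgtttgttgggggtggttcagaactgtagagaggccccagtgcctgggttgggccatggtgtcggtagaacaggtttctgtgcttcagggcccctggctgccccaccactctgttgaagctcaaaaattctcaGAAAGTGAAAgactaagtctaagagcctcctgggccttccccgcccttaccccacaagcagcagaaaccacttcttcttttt
Cybb: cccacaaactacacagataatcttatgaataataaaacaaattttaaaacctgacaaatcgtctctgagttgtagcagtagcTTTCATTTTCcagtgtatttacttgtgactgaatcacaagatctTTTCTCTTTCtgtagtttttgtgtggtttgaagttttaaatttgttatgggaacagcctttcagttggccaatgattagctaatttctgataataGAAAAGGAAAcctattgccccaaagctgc
Cyba: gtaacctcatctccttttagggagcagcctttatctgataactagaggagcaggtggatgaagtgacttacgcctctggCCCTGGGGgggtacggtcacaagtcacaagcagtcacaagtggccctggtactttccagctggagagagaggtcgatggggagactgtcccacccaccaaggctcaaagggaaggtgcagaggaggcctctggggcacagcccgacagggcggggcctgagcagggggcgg

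Counting back from -1 at the last base shown, the IRF-type match of the Ncf1 promoter began at -82. The Cybb promoter held 3 such matches, at -168, -124 and -29, and the Cyba promoter held 0. The motif occurred in 2.98% of the 32851 mouse promoter windows of this length. CCCNNGGG, the letters around which EBF sites are built, was found at -171 in Cyba and in neither of the other promoters, against 11.8% of all windows. GAGGAA, a core used by PU.1, was in none of the 3 windows, against 23.3% of all. In the 50 bases after the start, Cybb alone of the 3 genes held it, beginning at base 10. No match overlapped another motif. A match describes letters and not a bound site. The base composition also differed, with 54.4% G and C in the Ncf1 window, 34.0% in Cybb and 60.0% in Cyba.

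Ncf1 was read by 3 probe sets. Its brightest, 1456772_at, read 1177, 1228 and 1139 in EBF arrays 1 to 3 and 2576, 2398 and 2348 in control arrays 1 to 3. The 2 groups were far apart, and each was tight. The means were 1181 ± 44.4 and 2440.5 ± 119.6 (SD, n = 3 each), a 2.04-fold difference and a log2 difference, EBF minus control, of -1.03 ± 0.07 (SE). All log2 differences, and the fold differences taken from them, are on the log2(intensity + 32) scale, which understates the change of dim probe sets. The folds are therefore not ratios of the means shown. Probe set 1451767_at read 759, 702 and 769 in the EBF arrays and 1578, 1354 and 1314 in the controls (-0.90 ± 0.09, SE). Probe set 1425609_at read 619.9, 527 and 624 against 1035, 897 and 870.4 (-0.63 ± 0.10, SE). The last 2 were designed from the same source sequence. All 3 had every EBF array below every control, and the size ranged from 1.55- to 2.04-fold. Among all 45037 probe sets, ordered from the most lowered, they ranked 31, 63 and 187.

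Cyba, which encodes the p22phox chain that stabilises gp91phox and gives p47phox its docking site, was read by 1 probe set, 1454268_a_at. It read 2023, 2080.2 and 2131 in the EBF arrays and 3191, 3067 and 3472 in the controls. The EBF arrays agreed closely and all lay well below the controls. The means were 2078 ± 54.0 and 3243 ± 208 (SD, n = 3 each), a 1.55-fold difference (log2 -0.63 ± 0.07, SE), and the probe set ranked 188 from the most lowered.

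Cybb, the gene of the catalytic chain gp91phox, was lower by a like amount but varied far more between arrays. Its brightest probe set, 1436778_at, read 576, 761 and 985 in EBF arrays 1 to 3 and 1061, 1214 and 1549 in control arrays 1 to 3. The highest EBF array came close to the lowest control without reaching it. The means were 774 ± 205 and 1275 ± 249 (SD, n = 3 each; 1.64-fold; log2 -0.71 ± 0.19, SE). Probe set 1422978_at read 286, 378 and 451 against 504, 564 and 644 (-0.59 ± 0.15, SE), again without overlap. Its values in EBF arrays 1 and 2 were below 410.4, the highest value of the Bacillus control probe sets, which have no mouse target. Probe set 1436779_at, from the same source sequence as the brightest, read 462, 570.0 and 920.1 against 839, 914 and 1374 (-0.68 ± 0.25, SE). Here EBF array 3 lay above controls 1 and 2, so the groups overlapped.

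**Figure D1:**
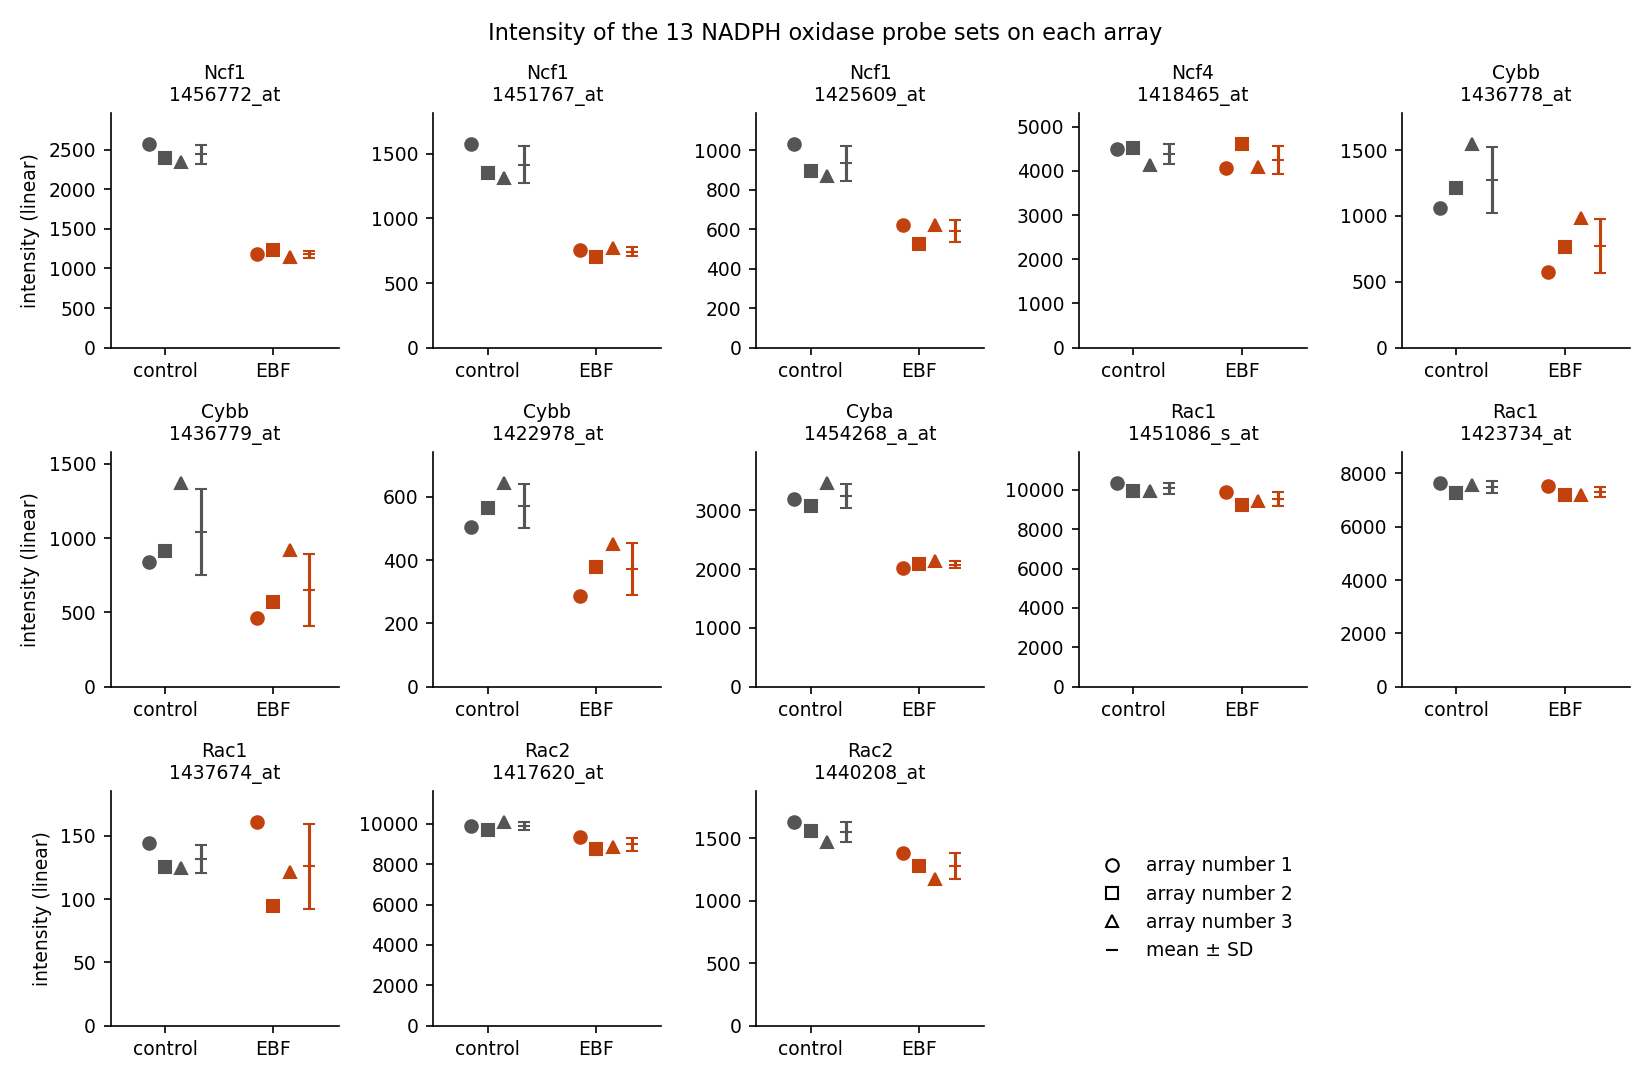
Linear intensity (y axis, from 0) of the 13 oxidase probe sets in the control and EBF arrays; each point is 1 array, its shape gives the array number, and bars show mean ± SD (n = 3). EBF points lie below all control points for the 3 Ncf1 probe sets, Cyba, 2 of the 3 Cybb, the 2 Rac2 and 1 of the 3 Rac1 probe sets. These are 9 of the 13, against 7.67% of all probe sets. In all 3 Cybb panels array 3 is the highest of its group.

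Ncf4, which encodes the cytosolic subunit p40phox, showed little difference. Its 1 probe set, 1418465_at, read 4066, 4615 and 4078 in the EBF arrays and 4504, 4527 and 4131 in the controls. The highest value of all belonged to an EBF array and the groups overlapped. The log2 difference was -0.05 ± 0.08 (SE), with means of 4253 ± 314 and 4387 ± 222 (SD, n = 3 each).

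The Rac genes were likewise close to the controls. Rac2, the haematopoietic Rac, read 9329, 8751 and 8859.8 in the EBF arrays and 9909, 9684 and 10105 in the controls at probe set 1417620_at (log2 -0.14 ± 0.07, SE). The groups did not overlap, but they differed by only 1.10-fold. Its other probe set, 1440208_at, read 1379.8, 1279 and 1171 against 1634, 1555 and 1471, also without overlap (-0.28 ± 0.08, SE, 1.21-fold). For Rac1, the Rac of most tissues, probe set 1451086_s_at read 9902, 9213 and 9449 against 10370.2, 9924 and 9921 (-0.08 ± 0.07, SE). The highest EBF array fell just short of the lowest control there. Probe set 1423734_at, from the same source sequence, read 7515, 7196 and 7202 against 7658, 7250.1 and 7571 (-0.04 ± 0.07, SE), with overlap. The remaining Rac1 probe set, 1437674_at, read 94.6 to 161 over the 6 arrays. On the same arrays the median of 27 Bacillus controls, which have no mouse target, was between 97.6 and 108, so this probe set was at background and gives no reading of Rac1.

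**Figure D2:**
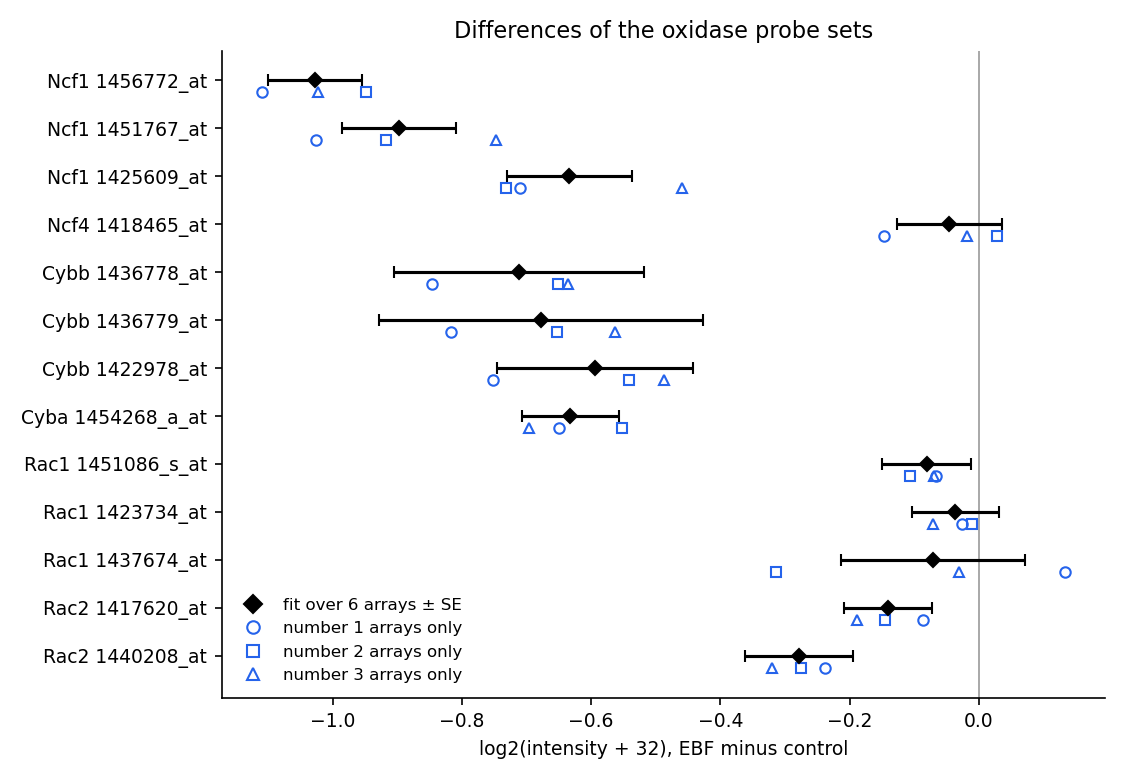
Difference of log2(intensity + 32), EBF minus control (x axis), for each oxidase probe set; diamonds give the fit over 6 arrays with its SE and open symbols the difference between the 2 arrays of 1 number. The Ncf1, Cybb and Cyba symbols lie between -1.11 and -0.46, and those of Ncf4, Rac2 and the 2 bright Rac1 probe sets between -0.32 and 0.03.

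In the fit across all probe sets (limma, two-sided, Benjamini-Hochberg adjusted p below 0.05, here termed called), 4 of the 13 oxidase probe sets were called and all 4 were lower. They were the 3 of Ncf1 and that of Cyba. Of all probe sets, 0.531% were called lower. With the array number as a replicate block, 7 of the 13 were called lower, the 3 of Cybb being added, against 2.4% of all probe sets. Every EBF array lay below every control at 9 of the 13, against 7.67% of all probe sets. Since this contrast was known when the genes were chosen, nothing is read from these counts. The median log2 difference of the 13 was -0.59, and that of all probe sets was 0.02. All 13 differences were below 0, against 19568 of all 45037 probe sets, although those of Ncf4 and Rac1 were close to or below their SE.

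The calls depended on single arrays to differing degrees. These calls too are a description only, since the genes were chosen with this contrast in view. Ncf1 at 1456772_at and 1451767_at was called without any 1 array, with log2 differences of -1.05 to -0.99 and -0.95 to -0.82. Cyba was no longer called when EBF 1, EBF 2 or control 1 was left out, and its difference stayed between -0.67 and -0.58. Ncf1 at 1425609_at lost it without any 1 array other than EBF 3 (-0.68 to -0.56). The 3 Cybb probe sets gained the call without EBF 3, or without both number 3 arrays, and the brightest then had -0.90 and -0.75.

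Cybb differed from the other members in how its arrays varied within a group. The SD of its brightest probe set within groups was 0.32 on the log2 scale, larger than that of 98.0% of the 34115 probe sets with a mean intensity of at least 200, whose median SD was 0.11. It was 0.43 at 1436779_at and 0.24 at 1422978_at. The brightest probe sets of the other 5 genes had SDs of 0.04 to 0.09, and those of the remaining Ncf1 and Rac2 probe sets were 0.10 to 0.13. Array number 3 was the highest of its group and number 1 the lowest at all 3 Cybb probe sets in both groups. Compared within a number, EBF was lower than control in each case at the brightest probe set, by 0.85, 0.65 and 0.64 on the log2 scale for numbers 1, 2 and 3. With the number as a block, the SE of that difference was 0.08 in place of 0.19.

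**Figure D3:**
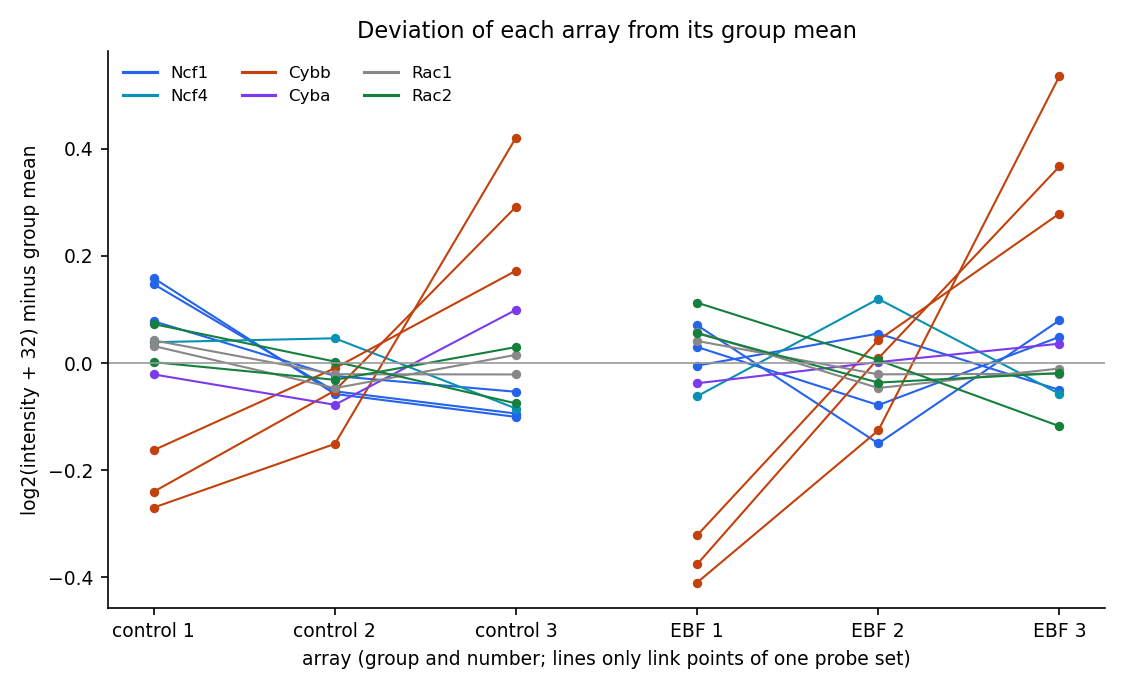
Deviation of log2(intensity + 32) from the group mean (y axis) on each array for the oxidase probe sets, without the Rac1 probe set at background; lines link the points of 1 probe set within a group. The Cybb lines span the widest range, with number 3 at the top and number 1 at the bottom in both groups.

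Other genes had this pattern between arrays. Among 461 genes with a mean intensity of at least 200 and an SD of these deviations of at least 0.25, those most like Cybb in their deviations from the group means over the 6 arrays were Tmed6 (Pearson r = 0.999), Lrrn3 (0.999), H2-Ob (0.996), Npnt (0.996) and AA467197 (0.994), a comparison added after the values were seen. H2-Ob, a chain of the peptide-loading regulator H2-O, read 820.1, 1200.0 and 1542 in the EBF arrays and 1318, 1498 and 2013 in the controls. Array 3 was also highest in each group for Cxcl12, a stromal chemokine gene, with 1631, 1004 and 2872 against 1426, 2147 and 4593. For Cd68, a macrophage gene, the values were 387, 339.9 and 456 against 417, 453 and 643, with the same array on top. Both were named after their values were seen. The same held for 3 of the 8 stromal markers measured, 3 of the 21 phagocyte markers and 4 of the 12 pro-B cell markers. Array 3 was the lowest of both groups for 0 of the 8, 2 of the 21 and 2 of the 12. The share over all genes was not computed, so these counts cannot show whether the pattern is particular to any of these lists. What part these differences between arrays have in the Cybb values was not tested.

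Over the 6 arrays and 15387 genes with a mean intensity of at least 200, Pearson's r of log2(intensity + 32) with Ncf1 at 1456772_at was highest for Lat2 (0.999), an adaptor of immunoreceptor signalling. Lat2 read 1069.8, 1149.8 and 1045 in the EBF arrays and 2303, 2169.98 and 2063 in the controls. The next were Ltb4r1, a leukotriene B4 receptor (0.995), Il18r1, the interleukin-18 receptor (0.995), Prkaca, a catalytic subunit of protein kinase A (0.995), and Decr1, a mitochondrial reductase (0.994). Their log2 differences were -0.44, -0.99, -0.16 and -0.39, and that of Lat2 was -0.98. The 6 arrays form 2 groups, so a step between the groups enters each of these correlations.

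Markers of the labelled cell type were present, and 10 of the 21 phagocyte markers measured were dim while others were bright. All 12 pro-B cell markers on the list had a probe set above the highest Bacillus control on at least 1 array. Of them, Vpreb3 was called higher and Dntt lower; Vpreb3 was not called without EBF 2, control 1 or control 2 (highest limma adjusted p 0.0635), nor Dntt without EBF 1, EBF 2, control 1 or control 3 (0.106). The share of all genes called in either direction was 1.09%, and 7.34% with the replicate block. Without EBF 3, 4287 of all 45037 probe sets were called in either direction, against 394 with all 6 arrays. With the block 4 pro-B markers were called higher, adding Igll1 (blocked limma adjusted p = 0.00409), Cd79b (0.0191) and Il7r (0.0224), and Dntt stayed the 1 lower; without EBF 3, 3 were called higher and 1 lower. Their summed intensity was 79011 to 81486 in the EBF arrays and 69831 to 72705 in the controls. The median log2 difference of these markers was 0.19, and 8 of the 12 differences were above 0. Of all 18193 genes, 7637 had a difference below 0, and the median over all genes was 0.03. Ebf1, the gene of EBF and a marker on this list, read 4772, 4756 and 4082 in the EBF arrays and 4204, 4276 and 4029 in the controls. It was not called (log2 0.12 ± 0.08, SE, limma adjusted p = 0.469, blocked 0.377). Whether its probe set reads the transcript of the retrovirus was not tested. Of 23 phagocyte markers 21 were measured, and 10 of these stayed below the highest Bacillus value on every array. Myeloperoxidase (Mpo) read 132 to 185 over the 6 arrays and S100a8 126 to 148, near that background. Others were far above it on every array: Mrc1 read 5368 to 7820, Prtn3 1202 to 1808, Csf1r 1245 to 1452 and Adgre1 1173 to 1424. These examples were named after their values were seen. None of the 21 was called higher, while Lyz1 (log2 -0.75 ± 0.08, SE; limma adjusted p = 0.00642), Lyz2 (-0.48 ± 0.07; 0.0169) and Mrc1 (-0.43 ± 0.07; 0.0428) fell. The lysozyme genes are near-identical copies whose probe sets may not separate them. Lyz1 kept the call without any 1 array, whereas Lyz2 and Mrc1 kept it only when the array left out was EBF 3 (highest adjusted p otherwise 0.101 and 0.171). The 3 EBF values of Lyz1, 307 to 357, were below the highest Bacillus value of the 6 arrays, 410.4. With the block 4 were lower, Prtn3 being added (blocked adjusted p = 0.0282), and without EBF 3 these 4 were lower and Ltf higher (0.0105). The summed phagocyte markers read 15939 to 16140.5 in the EBF arrays and 18096 to 18869 in the controls. Without Mrc1 the sums overlapped, at 10362 to 10772 and 10557 to 11565. The median log2 difference of the list was 0.04, and 11 of the 21 differences were above 0. Their part in the oxidase values was not tested. Of 8 stromal markers 0 were called, and their sum read 12988 to 19306 against 14701 to 25747. Their median log2 difference was -0.31, and only 2 of the 8 differences were above 0. What part stromal RNA has in the oxidase values was not tested. In sorted bulk samples, fewer cells of a type and less RNA per cell cannot be told apart.

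The rest of the oxidase pathway showed no called change. Of 81 other genes on 4 lists, 67 were measured at their brightest probe set, and limma called 0 of them, against 1.09% of all genes. At an unadjusted p below 0.05 there were 14, 6 higher and 8 lower, against 19.7% of all genes. With the replicate block 4 were called, 3 higher and 1 lower, against 7.34% of all genes. Without EBF 3, 7 were called, in a fit that called 4287 of all 45037 probe sets against 394 with all 6 arrays. Their median log2 difference was 0.00 and the range ran from -0.50 to 0.45.

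Among oxidase homologues and partners, 8 of 13 were measured and 0 were called. Cybc1, the chaperone that helps gp91phox and p22phox to mature, read 2817 ± 207 in the EBF arrays and 3168 ± 238 in the controls (SD, n = 3 each; log2 -0.17 ± 0.09, limma adjusted p = 0.339). Duoxa2, a maturation factor of a dual oxidase, had 0.14 ± 0.11 (SE; limma adjusted p = 0.491). Of 26 activators of assembly 23 were measured and 0 were called. The smallest p-values were those of Tiam1, a Rac exchange factor (0.26 ± 0.07; limma adjusted p = 0.143), and Vav2, another one (-0.35 ± 0.10; 0.150). Vav2 was lower in the EBF arrays past the threshold without EBF 3 (0.0138). Protein kinase C delta (Prkcd), which phosphorylates p47phox, had 0.25 ± 0.07 (limma adjusted p = 0.150), and 0.0440 without EBF 3; it was named after its value was seen.

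Of 24 genes of superoxide and peroxide handling 21 were measured, 16 of them with a difference above 0, and their median was 0.07 beside 0.03 for all genes. Among all 18193 genes, 7637 had a difference below 0. The fit called 0 and the blocked fit 3, all higher. Gsr, glutathione reductase, read 1679, 1639 and 1470.4 in the EBF arrays and 1359, 1221 and 1179 in the controls. The groups did not overlap (log2 0.34 ± 0.09, SE; limma adjusted p = 0.119, blocked 0.0289). Gclc, the catalytic subunit that makes the glutathione precursor, read 1664, 1767 and 1437 against 1318, 1347 and 1194, also without overlap (0.32 ± 0.09; 0.150, blocked 0.0345). Epx, eosinophil peroxidase, read 447, 381 and 283 against 252, 284 and 239.9, where EBF 3 and control 2 met (0.45 ± 0.14; 0.171, blocked 0.0333). Without EBF 3 all 3 were called, as was Gclm (limma adjusted p for Gsr, Gclc and Epx 0.0306, 0.0277 and 0.0145). Of the 6 Epx values 5 were below the highest Bacillus control value, 410.4.

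Of 18 transcription factors known at oxidase promoters 15 were measured, of which limma called 0 without the block and 1 with it. Irf8, a myeloid and B lineage factor that acts on Cybb, read 1268, 1605 and 1587 in the EBF arrays and 2031, 1937 and 2382 in the controls. The groups did not overlap (log2 -0.50 ± 0.12, SE; limma adjusted p = 0.0989, blocked 0.0148, and 0.0343 without EBF 3). Spi1, which encodes PU.1, read 1872, 1772 and 1699.7 against 1956, 2215 and 2025. It was lower without overlap by a smaller amount (-0.21 ± 0.08; limma adjusted p = 0.212, blocked 0.146).

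**Figure D4:**
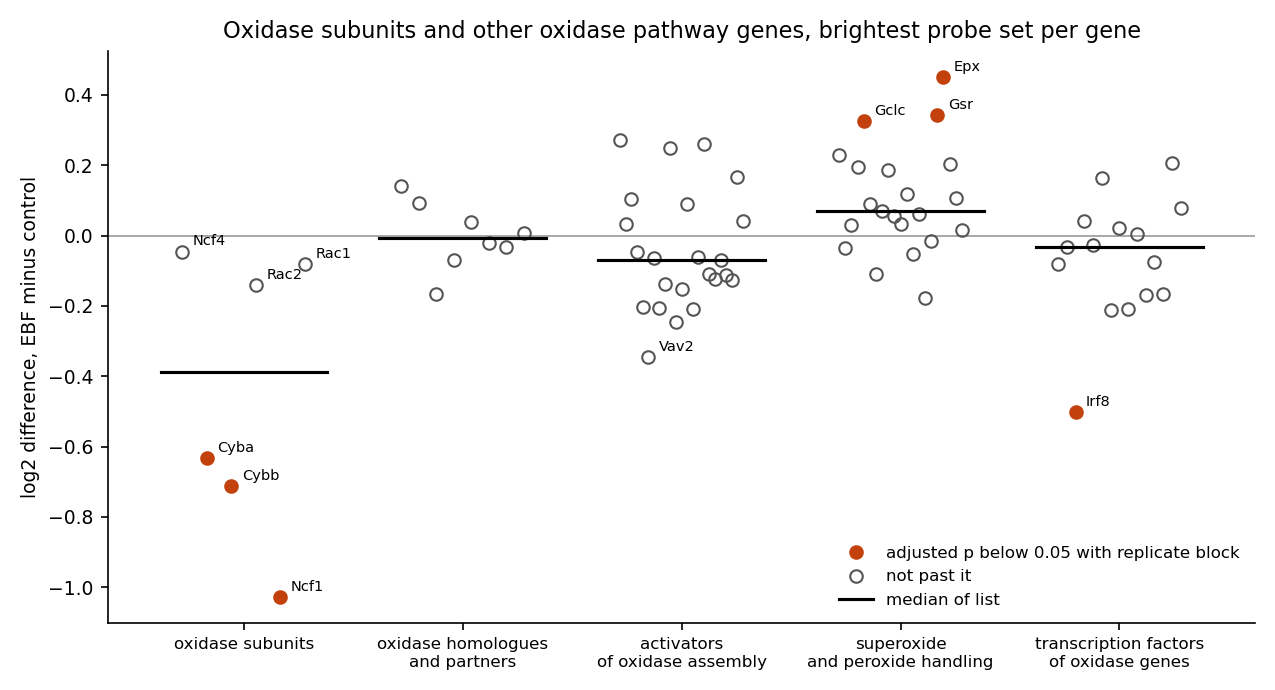
Difference of log2(intensity + 32), EBF minus control (y axis), for the 6 oxidase genes and the 4 lists of other pathway genes at the brightest probe set; filled points had an adjusted p below 0.05 with the replicate block and black lines are medians. Ncf1, Cybb and Cyba, which were chosen with this difference in view, lie at -1.03, -0.71 and -0.63, and the lowest of the 67 other genes is Irf8 at -0.50.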

How the data were processed

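Expression was measured on 6 Affymetrix arrays, 3 per group. The authors deposited 1 intensity per probe set and array, on a linear scale as judged from the values; the sources used here name no software, background step or normalization. The design text names a rat array, but the organism label is mouse and the platform table lists mouse genes. The 64 Affymetrix controls among 45101 probe sets did not enter the fit. Symbols came from the platform table: 34945 probe sets had 1 symbol, 932 several and 9160 none.

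Intensities were used without further scaling (array medians 424 to 451) as log2(intensity + 32) and compared by limma 3.58.1 (R 4.3.3; lmFit and eBayes, two-sided tests, no term other than group), with Benjamini-Hochberg adjustment over all 45037 probe sets and a threshold of 0.05. The fit was tested on simulated data. The number of arrays limits the precision. The members and lists were chosen with earlier results of these data known. Named genes are all members, the 3 largest called changes each way of each list or else the 2 smallest p-values, and the 5 genes most like Ncf1; others were named after their values were seen. Of the motifs searched, those of the EBF, PU.1 and IRF families are given.

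Same-numbered arrays deviated together (correlations of deviations from the group means over probe sets of above-median brightness: 0.318, 0.255 and 0.503 for numbers 1, 2 and 3), so the numbers were taken to pair the arrays. The pairing comes from the data alone. Alternatives were pseudocounts of 8 and 128, median scaling, quantile normalization, a minimum mean of 200, an intensity trend, the replicate block and leaving out each array. Leaving out both number 3 arrays was chosen after seeing the data.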

Additional observations from a re-analysis of the deposited data

How the results depend on the processing

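Over 14 alternatives, 181 of the 181 log2 differences of the oxidase probe sets that could be computed lay within 1 SD of the reported value. None of the called ones changed sign, and the Rac1 probe set at background was not computed under the minimum mean of 200. This count says little. The replicate block, the intensity trend and the minimum mean leave each log2 difference unchanged. Leaving out 1 array moves a difference by only a part of that array's deviation from its group mean. The 4 calls among the oxidase probe sets were the same 4 under both pseudocounts, both scalings, the minimum mean and the intensity trend. With the replicate block they became 7, and 7 without both number 3 arrays; leaving out 1 array gave 2 to 7. The 0 calls among the other pathway genes became 1 with the intensity trend (Gpx1, lower), 4 with the replicate block (Gsr, Gclc and Epx higher, Irf8 lower) and 2 without both number 3 arrays (Epx higher, Vav2 lower); leaving out 1 array gave 0 to 7, the 7 without EBF 3. Counting a gene at any of its probe sets also gave 0. Over all probe sets the count of 394 became 3280 with the replicate block and 1489 without both number 3 arrays, and 79 to 4287 without 1 array, the highest without EBF 3. The cause of these shifts was not tested. The block changed no other call given for an oxidase gene or a named pathway gene. Detection calls were not used, so signal over background rests on the Bacillus controls.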
